A study of Mus musculus with 8 samples.

Results

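The 10 genes described here, Ryr1, Cacna1s, Cacng1, Casq1, Casq2, Atp2a1, Sln, Trdn, Jph1 and Jph2, encode the proteins with which a skeletal muscle fibre releases, stores and recovers calcium. They were chosen by name, as the muscle calcium release and coupling genes, with earlier results of these data known. They come from 19938 genes that had a probe set with a single gene symbol, and all 10 were measured. Where a gene had several such probe sets, the one with the highest mean over the arrays was used. RNA came from cultured mouse primary myoblasts, the proliferating descendants of satellite cells, and was hybridised to 8 single-colour Affymetrix MoGene 1.0 ST arrays. The arrays fall into 4 labelled Runx1f/f, a genotype with loxP-flanked Runx1 that the labels also call KO, and 4 labelled WT, each numbered 1 to 4 as biological replicates. All cells were isolated from the gastrocnemius of C57bl/6 mice 2 to 3 weeks old and kept on Matrigel in proliferation medium, and no source used here names the agent that deleted Runx1.

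In skeletal muscle, an action potential entering the transverse tubules moves the voltage sensor Cav1.1, which opens the ryanodine receptor of the facing sarcoplasmic reticulum by direct mechanical contact. Calcium flows out of a store buffered by calsequestrin, starts contraction, and is pumped back by the reticulum's calcium ATPase. Junctophilins and triadin hold the membranes and the release complex together. Cells assemble this apparatus as they leave proliferation and form myotubes, so that its genes are commonly read as differentiation genes of muscle.

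Promoters of 6 of the 10 genes (Ryr1, Cacna1s, Casq1, Casq2, Atp2a1 and Jph2) were in the RefSeq table used here (GRCm38.p6), each covering 250 bases before and 50 bases after an annotated start. The series title names MyoD, c-Jun and Runx1, so the windows were searched on both strands for the E-box CANNTG that MyoD and its relatives bind, for its form CAGCTG, which every count of CANNTG includes, for TGTGGT, a core bound by Runx proteins, for TGANTCA, bound by AP-1, and for the MEF2 motif. Printed are 2 genes whose arrays differed by over 1.5-fold between replicate numbers, Atp2a1 at chr7:126463024-126463323 (minus strand) and Cacna1s at chr1:136052561-136052860 (plus strand), and 2 whose arrays overlapped, Ryr1 at chr7:29125102-29125401 (minus strand) and Jph2 at chr2:163397944-163398243 (minus strand). They are written 5′ to 3′ on the gene's strand, with E-boxes in capitals.
Atp2a1: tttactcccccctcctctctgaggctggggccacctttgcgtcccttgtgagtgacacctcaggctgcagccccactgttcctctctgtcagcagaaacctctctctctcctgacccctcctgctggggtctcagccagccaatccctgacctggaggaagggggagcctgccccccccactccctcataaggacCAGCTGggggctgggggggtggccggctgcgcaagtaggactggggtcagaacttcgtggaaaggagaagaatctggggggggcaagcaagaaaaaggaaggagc
Cacna1s: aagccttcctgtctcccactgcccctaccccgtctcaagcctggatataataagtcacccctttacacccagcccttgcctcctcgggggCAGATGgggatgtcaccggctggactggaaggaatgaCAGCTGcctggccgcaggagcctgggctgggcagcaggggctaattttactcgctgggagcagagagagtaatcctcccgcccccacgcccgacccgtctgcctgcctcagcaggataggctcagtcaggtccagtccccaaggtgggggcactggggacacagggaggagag
Ryr1: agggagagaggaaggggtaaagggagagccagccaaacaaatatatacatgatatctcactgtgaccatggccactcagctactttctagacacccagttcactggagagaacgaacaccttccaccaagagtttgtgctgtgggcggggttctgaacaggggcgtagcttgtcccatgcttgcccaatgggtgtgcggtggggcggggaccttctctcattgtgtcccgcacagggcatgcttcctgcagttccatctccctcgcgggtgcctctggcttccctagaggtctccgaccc
Jph2: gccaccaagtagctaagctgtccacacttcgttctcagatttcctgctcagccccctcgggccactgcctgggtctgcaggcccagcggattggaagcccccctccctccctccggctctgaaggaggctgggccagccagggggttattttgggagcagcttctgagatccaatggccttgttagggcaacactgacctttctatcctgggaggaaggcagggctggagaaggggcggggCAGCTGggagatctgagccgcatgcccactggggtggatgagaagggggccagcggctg
CANNTG was present in 5 of the 6 promoters, where 72.3% of all 32851 promoter windows of the same length hold it, and CAGCTG in 4 of 6, where 16.3% hold it. In Atp2a1 the CAGCTG began at position -55, counted from the start, in Cacna1s the E-boxes began at -160 and -123, and in Jph2 the CAGCTG began at -9. No CANNTG lay in the Ryr1 window. TGTGGT was found in 1 of 6 (Casq1), against 16.8% of all windows, the MEF2 motif in 1 of 6 (Casq2), against 3.19%, and TGANTCA in 0 of 6, against 7.81%. These are matches of letters, and binding was not measured here.

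The arrays have a property that bears on every value below. In all 35399 rows the mean of the 4 WT columns, of Runx1f/f 1 and 2, and of Runx1f/f 3 and 4 was equal within 7.5e-05. Runx1f/f 1 and 2 are therefore mirror images about a shared mean, as are 3 and 4, and a contrast of the labels cannot measure what Runx1 does. No source used here says how the means became equal, and whether each column holds the sample its header names was not tested, so the label and number of an array below are those of its column. Runx1 itself, the targeted gene, read 9.35, 9.98, 9.89 and 9.44 on Runx1f/f arrays 1 to 4, against 9.15, 9.99, 10.27 and 9.25 on WT arrays 1 to 4. Its label means are equal as in every row, so these values cannot show whether Runx1 was deleted. No source used here says whether its probe set lies in the deleted part. By replicate number, Runx1 read higher on all arrays numbered 2 or 3 than on any numbered 1 or 4, as did 9.87% of all genes. The difference of these means was 0.74 on the log2 scale and was not tested. Array medians were 4.39 to 4.41 on the log2 scale. All 10 genes averaged above the median of all values, Sln by the least. The myoblast markers Myod1 and Des were high on every array, Myod1 between 11.12 and 11.57 and Des, the muscle intermediate filament gene, between 11.13 and 11.47. Genes of differentiating muscle were high on every array too. Myog, the factor of terminal myogenic differentiation, read 10.74 to 11.94 and Myh3, embryonic myosin heavy chain, 11.49 to 12.37.

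No calcium release or coupling gene differed between the labels, as the equal means fix in advance. With limma over all genes, 0 of the 10 passed an adjusted p of 0.05, none of the 19938 genes did (0% called) and 0 had an unadjusted p under 0.05. Ryr1 averaged 9.15 ± 0.20 in Runx1f/f arrays and 9.15 ± 0.33 in WT arrays (SD, n = 4 each). The largest difference of label means among the 10 genes was 1.75e-05, in Casq2, which is rounding. What the arrays do show is a wide spread inside each label. Of the 10 genes, 9 spanned over 1.5-fold between their lowest and highest array, and 5 spanned over 2-fold. The median span over all genes was 0.25 on the log2 scale, and the share of all genes past these limits was not counted.

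That spread followed the replicate numbers in most of the genes, with numbers 2 and 3 of both labels above numbers 1 and 4. In 7 of 10 genes the 4 arrays numbered 2 or 3 all read above the 4 arrays numbered 1 or 4, against 9.87% of all genes, and 0 of 10 lay the other way without overlap, against 10.5% of all genes. The difference between the 2 sets of arrays was over 1.5-fold upward in 6 of 10 genes, against 2.32% of all genes, and downward in 0 of 10, against 0.838%. Its median was 0.63 on the log2 scale, against -0.01 over all genes. This split of the arrays was taken up after their values had been seen, and the labels attach no condition to a replicate number, so its differences are descriptions without a test. In whole cultures, fewer myotubes or differentiating cells and less RNA of these genes per cell cannot be told apart.

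**Figure D1:**
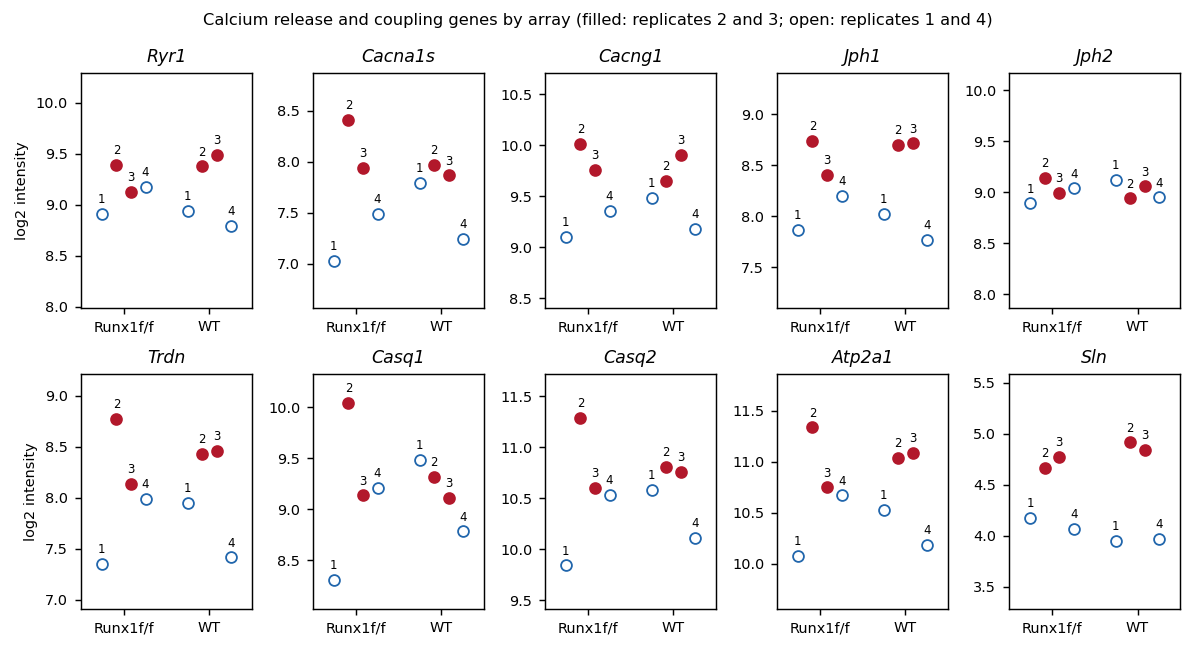
Log2 intensity (vertical axes of equal height) of the 10 genes on each array, Runx1f/f at the left and WT at the right of each panel, with the replicate number above each point. Filled points are replicates 2 and 3 and open points replicates 1 and 4. The 2 sets are apart in 7 panels and mixed in Ryr1, Jph2 and Casq1.

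The voltage sensor and release channel genes were measured by 1 probe set each. Cacna1s, which encodes the pore-forming and voltage-sensing subunit of Cav1.1, read 8.41 and 7.94 on Runx1f/f 2 and 3 and 7.97 and 7.87 on WT 2 and 3, against 7.03 and 7.49 on Runx1f/f 1 and 4 and 7.79 and 7.25 on WT 1 and 4. The sets did not overlap, but the lowest of the higher set, WT 3, was only 0.07 above the highest of the lower set, WT 1. The difference was 0.66 on the log2 scale.

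Cacng1, the gamma subunit of the same channel, read 10.02 and 9.76 on Runx1f/f 2 and 3 and 9.66 and 9.90 on WT 2 and 3, against 9.10 and 9.36 on Runx1f/f 1 and 4 and 9.49 and 9.18 on WT 1 and 4. Numbers 2 and 3 were above the others in both labels, by 0.55 on the log2 scale, with a gap of 0.17 between the sets.

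Ryr1, the calcium release channel of skeletal muscle, read 9.39 and 9.13 on Runx1f/f 2 and 3 and 9.38 and 9.49 on WT 2 and 3, against 8.91 and 9.17 on Runx1f/f 1 and 4 and 8.94 and 8.79 on WT 1 and 4. The sets overlapped through Runx1f/f 4, which read 0.05 above Runx1f/f 3. The difference of 0.39 corresponds to 1.31-fold and was smaller than that of the voltage sensor Cacna1s (0.66).

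Among the genes that build the junction, Jph1 and Jph2 behaved differently. Jph1, the main junctophilin of skeletal muscle, which ties the reticulum to the surface membrane, read 8.73 and 8.40 on Runx1f/f 2 and 3 and 8.70 and 8.71 on WT 2 and 3, against 7.87 and 8.20 on Runx1f/f 1 and 4 and 8.02 and 7.77 on WT 1 and 4. The sets were 0.21 apart at their closest, and the difference was 0.67.

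Jph2, the junctophilin best known from heart, read 9.14 and 8.99 on Runx1f/f 2 and 3 and 8.94 and 9.06 on WT 2 and 3, against 8.89 and 9.04 on Runx1f/f 1 and 4 and 9.12 and 8.95 on WT 1 and 4. Its sets were interleaved and its difference was 0.03. The 8 arrays spanned 0.25 on the log2 scale, close to the median span over all genes, also 0.25. Taken within each array, Jph1 minus Jph2 lay between -0.59 and -0.24 on arrays numbered 2 or 3, against -1.18 to -0.84 on arrays numbered 1 or 4, so the 2 junctophilins did not change by the same amount.

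Trdn encodes triadin, which anchors calsequestrin to the release channel. Its probe set read 8.77 and 8.14 on Runx1f/f 2 and 3 and 8.43 and 8.46 on WT 2 and 3, against 7.35 and 7.99 on Runx1f/f 1 and 4 and 7.95 and 7.42 on WT 1 and 4. The sets stayed apart, by 0.14, and the difference of 0.77, or 1.71-fold, was the largest of the 10 genes with the probe sets used.

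Trdn was covered by 19 probe sets, and they did not all show that difference. In 17 of the 19 the mean of numbers 2 and 3 was higher, in 7 without overlap, and in 4 by over 1.5-fold, with a median of 0.34 and a range from -0.12 to 0.77. The probe sets' means ran from 4.72 to 8.06, and the probe set used was the brightest. The mean of all 19 differed by 0.37, which is less than 1.5-fold. The second probe set of Jph1 differed by 0.46, again without overlap. The second of Jph2, with a mean of 8.93 against 9.02 for the one used, differed by 0.15 and was without overlap, so the interleaving of Jph2 holds for the probe set used only.

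**Figure D2:**
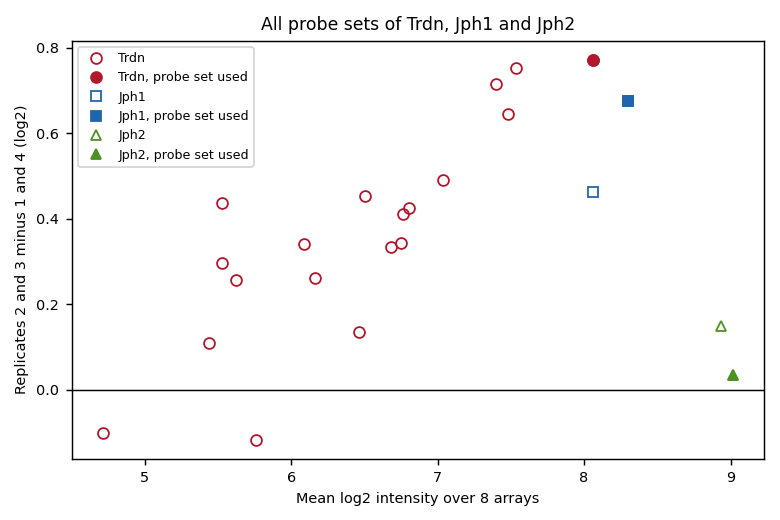
Difference between replicates 2 and 3 and replicates 1 and 4 (vertical axis, log2) against mean log2 intensity over the 8 arrays (horizontal axis) for every probe set of Trdn (circles), Jph1 (squares) and Jph2 (triangles), the one used being filled. Trdn probe sets run from -0.12 to 0.77, and the larger differences sit among the brighter ones.

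The calsequestrins, the calcium buffers of the reticulum, overlapped in one case and just missed overlap in the other. Casq2, the form of heart and slow fibres, read 11.29 and 10.60 on Runx1f/f 2 and 3 and 10.81 and 10.76 on WT 2 and 3, against 9.84 and 10.54 on Runx1f/f 1 and 4 and 10.59 and 10.11 on WT 1 and 4. The gap between the sets was 0.01, and the difference was 0.60. With each array centred on its median that gap closed, which left 6 of 10 genes without overlap.

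Casq1, the form of fast fibres, had the widest span of the 10 genes, 3.32-fold. It read 10.04 and 9.13 on Runx1f/f 2 and 3 and 9.32 and 9.11 on WT 2 and 3, against 8.31 and 9.21 on Runx1f/f 1 and 4 and 9.48 and 8.78 on WT 1 and 4. Runx1f/f 2 stood highest and Runx1f/f 1 lowest, while WT 1 was above both WT 2 and WT 3. The difference of 0.46 rested mainly on Runx1f/f 1 and 2. It was 0.83 within Runx1f/f, where number 3 read below number 4, and 0.09 within WT. Without Runx1f/f 1 or without Runx1f/f 2 it was 0.24, the same value because these arrays mirror each other.

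Calcium reuptake is represented by the pump and one of its inhibitors. Atp2a1, the calcium ATPase of fast muscle, read 11.34 and 10.75 on Runx1f/f 2 and 3 and 11.04 and 11.09 on WT 2 and 3, against 10.08 and 10.67 on Runx1f/f 1 and 4 and 10.53 and 10.18 on WT 1 and 4. The sets were 0.08 apart and differed by 0.69, or 1.61-fold. Atp2a2, the pump of slow muscle, heart and most other cells, differed by 0.10 with overlapping sets. Atp2a1 minus Atp2a2 within each array was -0.27 to 0.17 on arrays numbered 2 or 3, against -0.90 to -0.46 on arrays numbered 1 or 4.

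Sln encodes sarcolipin, a small membrane peptide that inhibits the pump. It read 4.67 and 4.78 on Runx1f/f 2 and 3 and 4.92 and 4.85 on WT 2 and 3, against 4.18 and 4.07 on Runx1f/f 1 and 4 and 3.95 and 3.97 on WT 1 and 4. Of the 10 genes its sets were the most clearly apart, with a gap of 0.49 and a difference of 0.76. The lower arrays lay under the array medians of 4.39 to 4.41, so this signal is dim, and no detection values were used.

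The genes differed in how closely they followed the replicate numbers. The replicate number sets accounted for 94.6% of the sum of squares about the gene mean in Sln, 83.6% in Jph1, 78.3% in Cacng1, 69.8% in Atp2a1, 68.5% in Trdn, 67.5% in Ryr1 and 63.0% in Cacna1s. They accounted for less in Casq2 (52.6%), Casq1 (23.5%) and Jph2 (4.26%). Besides the set difference, the arrays inside a set were spread out. Runx1f/f 2 was the highest array in 8 of 10 genes and Runx1f/f 1 the lowest in 7 of 10, and equal means tie the one to the other. In the median profile of the 10 genes, each centred on its own mean, Runx1f/f 2 stood at 0.54, WT 3 at 0.34, WT 2 at 0.25 and Runx1f/f 3 at 0.06, against -0.06 in Runx1f/f 4, -0.09 in WT 1, -0.45 in WT 4 and -0.54 in Runx1f/f 1. Runx1f/f 3 and 4, on opposite sides of the split, were only 0.11 apart, whereas Runx1f/f 2 and 3, on the same side, were 0.49 apart.

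**Figure D3:**
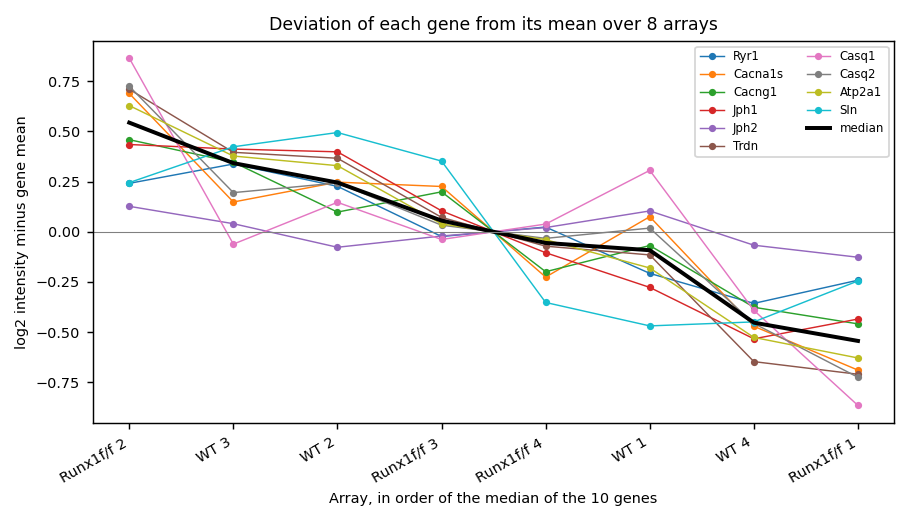
Log2 intensity minus the gene's mean over 8 arrays (vertical axis) for the 10 genes (thin lines) and their median (thick line), with arrays in order of that median. The median steps down through the arrays, with Runx1f/f 2 at 0.54 and Runx1f/f 1 at -0.54 at its ends, Sln drops between Runx1f/f 3 and Runx1f/f 4, and Jph2 stays near 0.

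The difference between numbers was seen within each label taken alone. Within Runx1f/f arrays it was above 0 in 10 of 10 genes, with a median of 0.66, against -0.02 over all genes. Runx1f/f 1 and 2 mirror each other, as do 3 and 4, so these 4 arrays are not 4 separate readings of the difference. Within WT arrays the difference was above 0 in 9 of 10 genes, with a median of 0.50, against 0.01 over all genes. The exception was Jph2, at -0.04 within WT. Cacna1s differed by 0.91 within Runx1f/f and 0.40 within WT, and Ryr1 by 0.22 and 0.56 in the same order, so the genes did not rank alike in the labels. Whether any gene's difference depended on the label was not tested. The labels also give each array a source number without saying what it is. By closeness the numbers were grouped as 139 to 142, 160 to 161, and 181 with 189, and only the first group holds arrays on both sides of the split, number 2 against number 1 of each label. There the difference was above 0 in 10 of 10 genes, with a median of 0.77, against 0.002 over all genes. The share of all genes above 0 was not counted, here or within a label. The groups 160 to 161 and 181 with 189 hold only number 3 and only number 4.

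**Figure D4:**
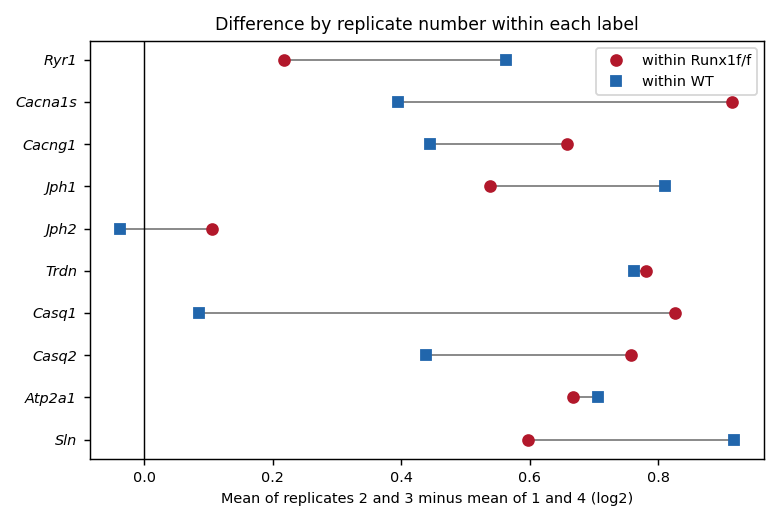
Mean of replicates 2 and 3 minus mean of replicates 1 and 4 (horizontal axis, log2) for each of the 10 genes, within the Runx1f/f arrays (circles) and within the WT arrays (squares). All circles are above 0, all squares but that of Jph2 are, and the values of Casq1 lie farthest apart, 0.83 within Runx1f/f and 0.09 within WT.

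Triad and coupling partners moved with the 10 genes in part. They are genes of the triad, the junction of transverse tubule and reticulum, and others such as Cav3 and Dysf. Of 15 measured partners, 9 lay above without overlap, against 9.87% of all genes, and 0 below, against 10.5%. Their median difference was 0.50. Cav3, the muscle caveolin, read 9.74 and 9.46 on Runx1f/f 2 and 3 and 9.31 and 9.44 on WT 2 and 3, against 8.03 and 8.31 on Runx1f/f 1 and 4 and 8.57 and 8.21 on WT 1 and 4, a difference of 1.21. Hrc, a calcium-binding protein of the reticulum lumen, differed by 0.94, Dysf, the membrane repair protein dysferlin, by 0.90, and the channel subunit Cacna2d1 by 0.77. Stac3, the adaptor that Cav1.1 needs for coupling, differed by 0.53 and Cacnb1, its beta subunit, by 0.61. Jsrp1 (0.11) and Asph (0.08), which also encode junctional proteins, overlapped between the sets, as did Fkbp1a (-0.16), a ryanodine receptor binding protein.

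The remaining lists of calcium handling genes had smaller median differences, from -0.07 to 0.22, against 0.50 for the triad and coupling partners. Single genes did not all differ by less. Orai2 (downward) and Camk2a (upward) differed by more in size than Trdn (0.77). For the list counts that follow, 9.87% of all genes lay above without overlap and 10.5% below. Past 1.5-fold were 2.32% of all genes upward and 0.838% downward. Of 4 other release channels, 2 lay above without overlap and 0 passed 1.5-fold, with Ryr3, the ryanodine receptor found at low levels in many tissues, at 0.26. Ryr3 read 3.52 to 3.97 over the 8 arrays, under the array medians of 4.39 to 4.41, so its signal is dim. Of 6 other pumps, exchangers and pump regulators, 0 were without overlap, and the list median was -0.07. In that list Atp2b1, a calcium pump of the plasma membrane, differed by 0.30. Of 7 store entry and mitochondrial uptake genes, 2 lay above and 1 below. The one below was Orai2, a channel protein of store-operated entry, which read 7.19 and 7.30 on Runx1f/f 2 and 3 and 6.59 and 6.60 on WT 2 and 3, against 7.58 and 7.47 on Runx1f/f 1 and 4 and 8.27 and 8.09 on WT 1 and 4. Its difference was -0.93, at -0.28 within Runx1f/f and -1.59 within WT. Of 11 genes for calcium binding and signalling, 4 lay above without overlap, and Camk2a, a calmodulin-dependent kinase, differed by 0.83. Camk2a read 4.02 to 4.24 on arrays numbered 1 or 4, under the array medians, so its signal is dim there. Calmodulin genes Calm2 and Calm3 were at -0.13 and 0.04 with overlapping sets.

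**Figure D5:**
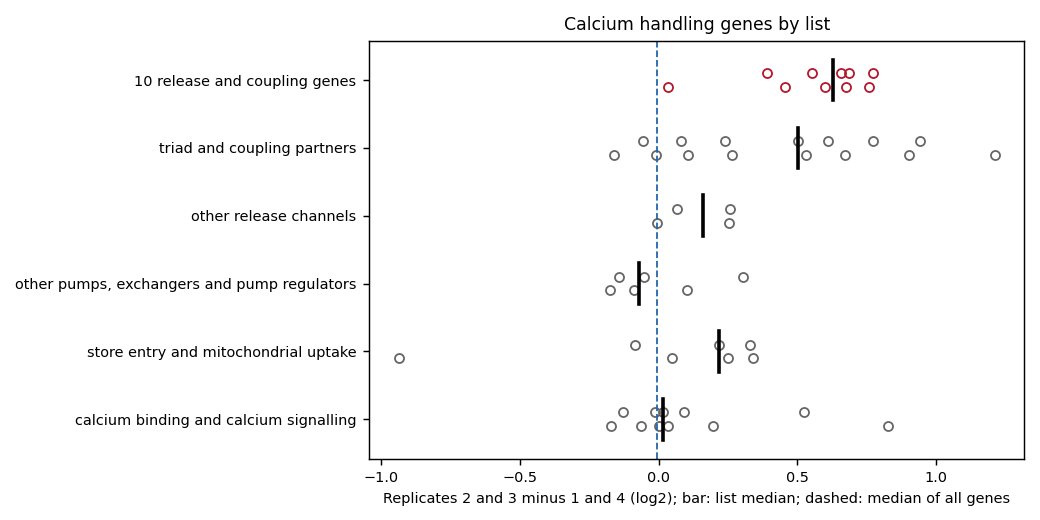
Mean of replicates 2 and 3 minus mean of replicates 1 and 4 (horizontal axis, log2) for the 10 genes and 5 lists of other calcium genes, 1 circle per gene, offset vertically for legibility. Bars mark list medians, 0.63 for the 10 genes and 0.50 for triad and coupling partners, and the dashed line marks the median of all genes, -0.01.

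The genes whose centred profile over the 8 arrays was most like the median profile of the 10 were Pacsin3, Lmod3, Srl, Ablim1 and Myh3. Their root mean square differences from it were 0.051, 0.052, 0.055, 0.063 and 0.067 on the log2 scale. Atp2a1 was the closest of the 10 genes themselves, at 0.068, and Jph2 the farthest, at 0.30. Srl, which encodes the reticulum protein sarcalumenin, read 10.84 and 10.40 on Runx1f/f 2 and 3 and 10.61 and 10.73 on WT 2 and 3, against 9.95 and 10.39 on Runx1f/f 1 and 4 and 10.31 and 9.94 on WT 1 and 4. Myh3 encodes embryonic myosin heavy chain and differed by 0.51. Pacsin3 and Ablim1 differed by 0.60 and 0.62, and Lmod3, the thin filament protein leiomodin 3, by 0.56. Only 5 values per gene are free in these profiles of 8 arrays, and the 5 genes were picked as the closest. How readily genes reach such likeness was not measured, and no test is attached to it.

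Regulators and markers of other cells were set beside these values. For the marker counts here, 9.87% of all genes lay above without overlap and 10.5% below. Myog, the factor of terminal myogenic differentiation, read 11.94 and 11.48 on Runx1f/f 2 and 3 and 11.70 and 11.76 on WT 2 and 3, against 10.74 and 11.20 on Runx1f/f 1 and 4 and 11.05 and 10.84 on WT 1 and 4, and differed by 0.76 over all 8 arrays. Sums given here are the log2 of a list's summed intensities, so its brightest genes weigh most. The sums of 7 myoblast markers, Myog included, were 13.360 to 13.515 on arrays numbered 2 or 3, against 13.252 to 13.356 on arrays numbered 1 or 4. Of these 7 markers, 3 lay above without overlap and 2 below. The other two above were Cdh15, the muscle cadherin, at 0.25 and Des at 0.18, and those below were Myod1 at -0.26 and Myf5, of undifferentiated myoblasts, at -0.89. Pax7, the satellite cell factor, was at 0.08 and Itga7 at -0.11, with overlapping sets. Of 5 heart muscle markers 0 were without overlap, and their summed level ran from 6.06 to 6.12 on arrays numbered 2 or 3, against 6.05 to 6.16 on arrays numbered 1 or 4. Of 6 smooth muscle and pericyte markers 1 lay above, with sums of 11.71 to 12.12 against 11.68 to 12.12 that are mostly Acta2 signal. Within that list Cspg4 was at 0.72, the one without overlap, while Rgs5 was at -0.49 and Tagln at -0.45. Of 5 fibroblast markers 0 did, with sums of 8.92 to 9.36 against 8.79 to 9.21. Of 5 leukocyte markers 1 lay above, with sums of 6.07 to 6.16 against 5.97 to 6.06. Of 5 endothelial markers 1 lay above and 2 below, with sums of 5.81 to 5.84 against 5.87 to 5.89, and of 3 Schwann and neural markers 0 were without overlap, with sums of 4.94 to 5.18 against 4.97 to 5.11. All heart, endothelial, and Schwann and neural markers averaged under the median of all values, 0 of each list being above it, so their sums are of dim probe sets. Of the 5 leukocyte markers only 1, Cd68, averaged above it, at 4.60, so those sums are mostly of dim probe sets too. Of the 5 fibroblast markers 2 averaged above it, and their sums are mostly Col3a1 signal. The part that other cells have in the differences of the 10 genes was not tested.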

How the data were processed

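The deposited table holds log2 intensities, 1 per probe set and array. Per the submitters' processing notes the authors used RMA, which corrects background, quantile-normalizes arrays and summarizes probes, and Partek, without versions. No label records a step that would equalize column means. This limits every comparison of labels. Columns were matched to samples by accession alone, so a mismatch of column and sample would change what each array's value stands for. The platform annotation gave 21789 rows with 1 gene symbol, 1621 with several, and 11989 rows were not annotated there. No dim filter was applied, and the number of arrays limits the precision.

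Labels were compared with limma 3.58.1 (R 4.3.3, lmFit and eBayes, two-sided, Benjamini-Hochberg over 19938 genes, threshold 0.05), which was tested on simulated data. Array sets by replicate number were described by differences of means, a 1.5-fold threshold (0.585 on the log2 scale) and overlap. The genes named were the 10 members, Runx1, Myod1 and Myog, up to 4 genes per list past 1.5-fold or else the 1 with the largest difference, and the 5 most alike profiles. Other genes, such as Stac3, Cacnb1, Atp2a2, Jsrp1, Asph, Fkbp1a, Calm2, Calm3 and the markers named, were chosen after their values were seen. Members and lists were chosen with earlier results of these data known. Some listed genes are not reported here. A replicate number block was fitted as an alternative, since deviations from the label means of same-numbered arrays correlated by 0.39, 0.46, 0.60 and 0.57. The labels give no pairing, and 4 of 8 arrays correlated best with their own number. Labels call the arrays biological replicates. Promoter sequences are RefSeq's.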

Additional observations from a re-analysis of the deposited data

Results flagged for a closer look

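The differences by replicate number of 26 named genes were compared between the labels, and 1 gene moved one way in every array of one label and the other way in the other. In Atp2b1 replicates 2 and 3 read 10.89 and 10.88 on Runx1f/f arrays, against 10.90 and 10.91 for replicates 1 and 4. On WT arrays replicates 2 and 3 read 11.17 and 11.25, against 10.44 and 10.73 for replicates 1 and 4. The difference within Runx1f/f (-0.02) minus that within WT (0.63) was -0.65. This was not tested. Over 52 groups of 4 arrays, 0 held an array standing clear of the remaining 3. In 26 of these, the Runx1f/f groups, the equal means make the values symmetric, so that none could be found.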

How the results depend on the processing

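The count of 0 genes between Runx1f/f and WT was the same with the replicate block, source number groups as a block, a variance trend, a threshold of 0.1, all probe sets, brighter genes, both scalings and each array left out. With the replicate block the largest difference among the 10 genes was 1.75e-05, and the block changed no call. The equal means fix the count wherever they hold, so those settings carry no weight. The scalings loosened the equality slightly, with that difference at 0.0044 after centring and 0.015 after a second quantile normalization. With 1 array left out, which breaks the equality, that difference ran from 0.117 to 0.288, and 0 to 27 genes had an unadjusted p under 0.05. The median difference by replicate number ran from 0.50 in WT arrays to 0.77 in source numbers 139 to 142 over the other settings, and from 0.51 to 0.70 with 1 array left out. With both labels, 6 to 8 of the 10 genes were without overlap. With 4 arrays, where overlap is less likely, the count was 7 within Runx1f/f (25.0% of all genes), 8 within WT (24.5%) and 8 in source numbers 139 to 142 (25.8%). Cacna1s and Casq2 fell under 1.5-fold without Runx1f/f 1 or Runx1f/f 2 (0.53 and 0.46), and Casq2 also without WT 4 (0.55). Cacng1 passed it without WT 1 (0.62) or WT 2 (0.61), and Casq1 without WT 1 (0.63). Jph1 fell under it with the mean of its probe sets (0.57) or within Runx1f/f (0.54). Cacna1s and Casq2 fell under it within WT (0.40 and 0.44), and Jph2 was at -0.002 without Runx1f/f 1 or Runx1f/f 2. The cause was not tested. Signal over background was not analysed here.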
